A study of Saccharomyces cerevisiae with 44 samples.

Results

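The comparison set RNA bound by Yra1 together with Hpr1 beside RNA bound by Yra1 together with Cbp80, in wild-type budding yeast. Members were the 3 libraries of the Hpr1-PrA strain and the 3 of the Cbp80-PrA strain that were made from Yra1 pulldowns, 6 of the 30 libraries of the series. They were picked by their labels alone, and 1 of the 6 (Cbp80-PrA replicate 2) was sequenced in 2 runs that the authors had merged, which makes 7 runs. Both strains carried wild-type THO2 and a SNAPf tag on Yra1, in a MATa BY background that lacks LYS2, URA3, LEU2 and MET17 and holds a partial deletion of HIS3. They differed in which protein bore protein A (PrA) behind a protease site: Hpr1 in one strain, Cbp80 (gene STO1) in the other. Cells grew in YPD at 30 °C, were ground frozen, and the cleared lysate was crosslinked with 0.2% formaldehyde. PrA was captured on IgG beads, the complexes were released by protease, and antibody to Yra1 then held the fraction that also contained Yra1. A strain without PrA went through the same steps (no tag, 3 libraries), and total RNA was taken from 7.5% of the lysate of each strain (3 libraries each). A pulldown reports RNA that both proteins shared when the lysate was crosslinked. It reports nothing on how many copies of each sat on an RNA.

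Hpr1 is a subunit of THO, the complex that travels with RNA polymerase II and loads export factors on nascent transcripts. Within TREX, THO works with the RNA helicase Sub2 and the export adaptor Yra1, which hands the mRNP to the export receptor Mex67. Cbp80 and Cbp20 form the nuclear cap-binding complex, which binds the 5′ cap of every RNA polymerase II transcript soon after it forms, mRNA and many small nuclear and nucleolar RNAs included. The study asked whether mRNPs that hold THO are drawn from a particular set of transcripts, longer ones among them, and this pair of pulldowns addresses it with Yra1 common to both sides. Libraries were made with a kit that primes on poly(A) and reads the 3′ end, so each value counts RNA molecules with an oligo(dT) site. Values were therefore not divided by gene length. Whether longer genes gain counts from priming at further sites was not tested.

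Gene counts (unique molecular identifiers, 1 per molecule) came to 78186 to 140468 in the Hpr1/Yra1 libraries and 257286 to 459999 in the Cbp80/Yra1 libraries, against 44389 to 71037 with no tag and 457364 to 511110 in total RNA of the 2 strains. The Hpr1/Yra1 libraries were thus shallower than those of Cbp80/Yra1 and deeper than those of no tag. Replicates of each group differed by more than sampling noise, and each counts as 1 sample. The MATa genes MFA1, MFA2, STE2, STE6, BAR1 and AGA2 had counts in every library, and MF(ALPHA)1 had none. Other mating-type genes were less clear-cut. The MATalpha gene SAG1 had 2, 6 and 4 counts with Hpr1 and 1, 11 and 3 with Cbp80, and STE3 had at most 2. The MATa gene ASG7 had 0 counts in all Hpr1/Yra1 libraries. LYS2, URA3 and MET17 were at 0 throughout, as the strain's genotype asks, and LEU2 had 1 count in Hpr1-PrA total RNA replicate 2. HPR1 and STO1, the tagged genes, keep their reading frames, so the presence of their RNA does not check the labels. Whether tagging changed the 3′ ends counted at these genes was not tested.

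Of 3853 genes with enough counts to test, 724 were higher and 805 lower in the Hpr1/Yra1 pulldown (18.8% and 20.9%). Called means an adjusted p under 0.05 in edgeR's quasi-likelihood test and a log2 difference beyond 1, written throughout as Hpr1 minus Cbp80. Between the 2 groups, 693 of the genes called higher and 782 of those called lower had no overlap among the 3 and 3 libraries. Groups without overlap were common beyond the calls, at 2312 of the 3853 tested genes, 1124 with all Hpr1/Yra1 libraries above and 1188 with all below. The median over all tested genes was 0.02, a centre that the scaling of the libraries sets near 0. A test that asks for a change significantly larger than the limit itself kept 246 higher and 307 lower. In total RNA of the same strains edgeR called 0 of 4437 genes in either direction (0% higher, 0% lower), with 133 genes at an unadjusted p under 0.05 (DESeq2 also called 0, with 18 at that level). Without Cbp80-PrA replicate 2, 1 gene was called higher in total RNA. Taking total RNA out within 1 model left 735 genes higher and 721 lower of 5261 tested (14% and 13.7%). Those included 618 of the 724 and 616 of the 805. That model pooled the spread of pulldowns and of total RNA, which varied less, so its p-values may understate the spread between pulldown replicates.

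All values here are shares of a library, so a fall in 1 class lifts the rest, and the amount of RNA in a pulldown was not measured. In lysate of many cells, fewer cells that held an RNA in such an mRNP and less of it per cell cannot be told apart. The no tag pulldown adds a reference for what sticks without PrA. Over the coding genes called higher, the median log2 ratio to no tag was 0.38 for Hpr1 and -1.11 for Cbp80. Over those called lower it was 0.62 for Hpr1 and 2.25 for Cbp80. Genes called higher with Hpr1 were thus, at the median, near the level of the untagged pulldown on the Hpr1 side and below it on the Cbp80 side, whereas genes called lower were well above it with Cbp80. Restricted to the 1153 tested genes with a log2 ratio above 0 to no tag in both pulldowns (an alternative added after seeing the data), 104 were higher and 415 lower. How far RNA that sticks without the tag enters the higher calls was not tested.

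Small nucleolar RNAs (snoRNAs) took a smaller share of the counts in the Hpr1/Yra1 pulldown than in the Cbp80/Yra1 pulldown. For this and every other non-coding class, the counts cover only molecules that offered an oligo(dT) site. Which forms of these RNAs those were, and how they relate to the whole pool of each RNA, was not measured. These RNAs guide chemical modification of ribosomal RNA in the nucleolus, box C/D snoRNAs directing ribose methylation and box H/ACA snoRNAs pseudouridylation. In the Hpr1/Yra1 libraries box H/ACA genes took 0.730%, 0.640% and 0.692% of gene counts, against 4.84%, 4.14% and 4.64% in the Cbp80/Yra1 libraries, a mean 6.61 times higher with Cbp80. Box C/D genes took 0.962%, 0.840% and 0.762% with Hpr1 and 3.50%, 2.63% and 3.23% with Cbp80, 3.65 times higher. The groups were far apart for both classes. Total RNA held 1.04% ± 0.0914 and 1.11% ± 0.0936 (SD, n = 3) for H/ACA in the Hpr1-PrA and Cbp80-PrA strains and 0.314% and 0.320% for C/D, and no tag 0.398% and 0.325%. With 3 against 3 the exact two-sided permutation test cannot go below p = 0.1, and both classes reached it (adjusted p = 0.14 over 7 classes). Gene by gene, 24 of 28 tested H/ACA genes and 34 of 40 tested C/D genes were called lower with Hpr1 and 0 higher, beside 20.9% lower and 18.8% higher among all genes. The medians were -2.67 and -1.81.

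Sequences of genes at the far end of this shift are shown so that the boxes of each class can be read beside the values. They were read from the R64 assembly of RefSeq on the strand of the gene, 5′ to 3′. For the pair of box H/ACA genes SNR34 (chrXII:899180-899382, plus strand) and SNR189 (chrIII:178610-178798, minus strand), capitals mark the last ACA, the box after which the class is named together with box H.
SNR34: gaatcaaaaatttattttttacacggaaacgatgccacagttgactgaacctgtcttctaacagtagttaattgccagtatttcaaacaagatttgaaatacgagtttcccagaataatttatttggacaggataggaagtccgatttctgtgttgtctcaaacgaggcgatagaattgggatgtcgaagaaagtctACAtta
SNR189: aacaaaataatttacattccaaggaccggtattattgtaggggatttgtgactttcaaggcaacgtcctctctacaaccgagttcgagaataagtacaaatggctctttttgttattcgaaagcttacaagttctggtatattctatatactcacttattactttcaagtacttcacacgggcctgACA

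In the box C/D genes SNR64 (chrXI:38811-38911, plus strand) and SNR56 (chrII:88190-88277, plus strand), the lowest of their class, capitals mark box C (TGATGA) near the 5′ end and box D (CTGA) near the 3′ end.
SNR64: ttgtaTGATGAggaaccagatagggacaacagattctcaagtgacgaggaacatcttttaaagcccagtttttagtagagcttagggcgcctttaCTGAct
SNR56: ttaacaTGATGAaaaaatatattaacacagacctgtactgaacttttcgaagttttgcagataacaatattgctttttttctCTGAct
Searched on the gene's own strand, TGATGA stood within the first 20 nt in 36 of 47 annotated C/D genes and 1 of 29 H/ACA genes, CTGA within the last 15 nt in 45 of 47 and 1 of 29, and ACA within the last 8 nt in 3 of 47 and 17 of 29. The classes named in the annotation thus differ in their letters as their names say.

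SNR34 had 279, 130 and 97.9 CPM (counts scaled to library size by edgeR's TMM factors) in the Hpr1/Yra1 libraries and 2603, 2281 and 2175 in the Cbp80/Yra1 libraries, a log2 difference of -3.86 ± 0.28 (SE; adjusted p = 1.4e-08, edgeR). SNR37, also H/ACA, had 133, 130 and 152 CPM against 1944, 1985 and 1980, a difference of -3.83 ± 0.22 (adjusted p = 1.23e-09, edgeR). SNR189 had 226, 217 and 196 CPM against 2939, 1874 and 2682. In each of them the highest Hpr1/Yra1 library lay several-fold below the lowest Cbp80/Yra1 library. SNR5, SNR10 and SNR42 completed the 6 lowest, at -3.54, -3.52 and -3.22. SNR30, the H/ACA RNA needed to cut the precursor of 18S rRNA, gave 756, 695 and 881 CPM with Hpr1 and 5684, 7494 and 6170 with Cbp80. With no tag SNR34 had 388, 113 and 45.1 CPM, a range that took in all 3 of its Hpr1/Yra1 libraries and none of Cbp80/Yra1, and SNR30 had 436, 605 and 428, below both pulldowns. SNR10 overlaps YGL088W on its strand. Over all tested members the median log2 ratio to no tag was 0.30 with Hpr1 and 3.04 with Cbp80 for H/ACA, and 0.80 and 2.72 for C/D. Both ratios use the same no tag libraries.

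Among C/D genes the lowest was SNR64, with 212, 253 and 120 CPM against 2226, 1556 and 1466 (log2 -3.13 ± 0.27, adjusted p = 7.42e-08, edgeR). SNR56 followed at -2.99 ± 0.25 and SNR13 at -2.81 ± 0.25, each with all 3 Cbp80/Yra1 libraries above all 3 Hpr1/Yra1 libraries. SNR128 (U14), which has a part in processing of 18S rRNA, was at -2.78 and SNR17A, one of the pair of genes for U3, at -1.71 (it overlaps IRC13 on its strand). The fall was thus shared by modification guides and by the snoRNAs of rRNA cleavage. Called members with the smallest change were SNR70 (-1.16), SNR76 (-1.09) and SNR38 (-1.08). SNR38 lies in an intron of TEF4, and its reads cannot be told from those of that mRNA's intron. Of these calls SNR76 was lost without Cbp80-PrA replicate 1 (-0.77) or Hpr1-PrA replicate 2 (-0.96), and SNR38 without Hpr1-PrA replicate 2 (-0.91).

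**Figure D1:**
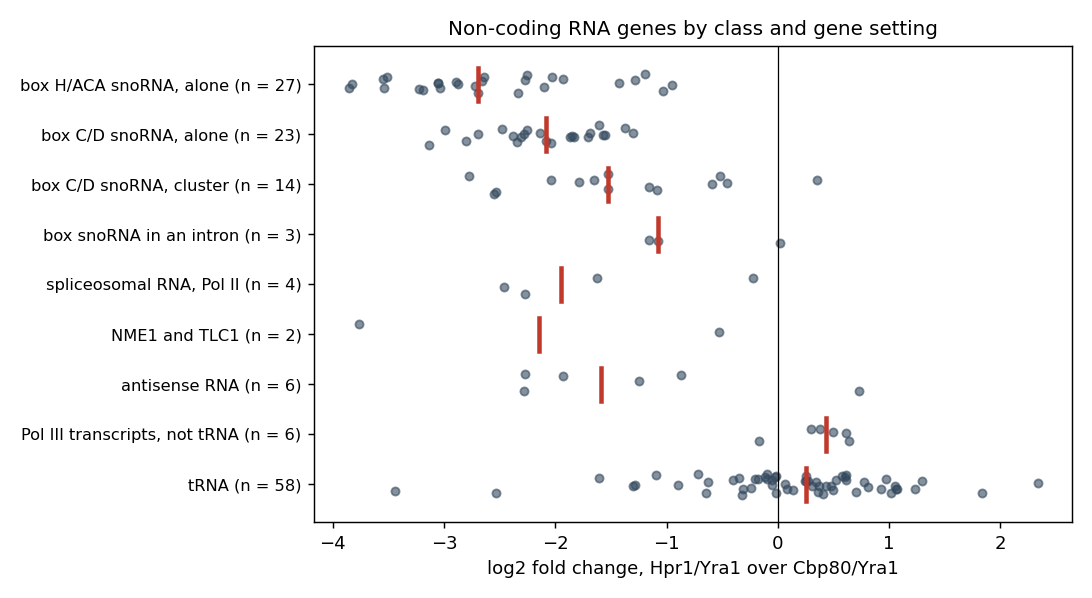
Log2 fold change of each tested non-coding RNA gene, Hpr1/Yra1 over Cbp80/Yra1, by class and by how the gene is transcribed (1 point per gene, n in brackets; red bar, median). All 27 H/ACA and 23 C/D genes that stand alone lie below 0, with medians of -2.69 and -2.09, while RNA polymerase III transcripts other than tRNA have a median of 0.44.

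The snoRNA genes without a call were then set beside the way each gene is transcribed, a grouping chosen after the values were seen. Of 24 tested C/D genes that stand alone, 23 were called lower. The exception was SNR52, which RNA polymerase III transcribes: 332, 456 and 250 CPM with Hpr1, 502, 323 and 376 with Cbp80, a log2 difference of -0.17 ± 0.24 (adjusted p = 0.583, edgeR). Its libraries overlapped. SNR18, in an intron of EFB1, had 637, 600 and 620 CPM against 361, 625 and 840 (0.02 ± 0.25), and shares its reads with the EFB1 intron. The other C/D genes without a call lay inside clusters that are transcribed as 1 precursor and cut apart: SNR73 at 0.35 ± 0.27, SNR75 at -0.46 ± 0.38, SNR57 at -0.52 ± 0.19 and SNR55 at -0.59 ± 0.24, none of them called. Among H/ACA genes the 4 without a call were SNR86 (-0.95), SNR36 (-1.03), SNR44 (-1.16) in the RPS22B intron, and SNR49 (-2.10 with an SE of 1.08).

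Of SNR52 (chrV:431129-431220, minus strand) and SNR73 (chrXIII:298307-298412, plus strand) the sequences are shown because they carry the same boxes as the C/D genes that fell. Capitals again mark boxes C and D.
SNR52: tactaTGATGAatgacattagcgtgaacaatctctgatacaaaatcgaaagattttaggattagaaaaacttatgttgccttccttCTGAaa
SNR73: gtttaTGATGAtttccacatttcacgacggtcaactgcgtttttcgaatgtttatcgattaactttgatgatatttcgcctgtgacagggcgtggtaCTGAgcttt
SNR52 and SNR73 thus hold the same box letters as SNR64 and SNR56.

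Members of 1 cluster had unlike values. In the chromosome XIII cluster, read from its 5′ end, the log2 differences were -1.53 (SNR78), -2.04 (SNR77), -1.09 (SNR76), -0.46 (SNR75) and, past SNR74, which had too few counts to test, 0.35 (SNR73) and -2.55 (SNR72). SNR72, the last in the precursor, had 53.1, 28.9 and 21.8 CPM against 311, 117 and 181, and SNR73, its neighbour, 186, 152 and 185 against 158, 106 and 148. In the chromosome XII cluster, on the minus strand, the order was SNR57 (-0.52), SNR55 (-0.59) and SNR61 (-1.52), again with the lowest value at the 3′ end. A chromosome XVI cluster ran from SNR41 (-1.79) through SNR70 (-1.16) to SNR51 (-1.66), and the pair SNR190 and SNR128 had -2.53 and -2.78. Whether those differences within a precursor hold was not tested. Members of a cluster share their source, and the value of each is its own fit.

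RNA polymerase III transcripts other than tRNA, a list also made after the values were seen, gave 0 of 6 called in either direction, at a median of 0.44. Among all tested genes 18.8% were called higher and 20.9% lower. SCR1, the RNA of the signal recognition particle, gave 3132, 3784 and 3546 CPM with Hpr1 and 2338, 1944 and 2461 with Cbp80 (0.64 ± 0.17, adjusted p = 0.00542, edgeR, under the fold limit). RPR1, the RNA of RNase P, gave 1115, 1121 and 914 against 825, 546 and 876 (0.49 ± 0.21). RNA170 (0.62), SNR6 (0.38) and 5S rRNA from RDN5-1 (0.30) were on the same side of 0, and SNR52 on the other. Both pulldowns held these RNAs above no tag, at median log2 ratios of 2.19 and 2.01. NME1, the RNA of RNase MRP and a relative of RPR1 that RNA polymerase II transcribes, behaved like the H/ACA genes: 226, 217 and 218 CPM against 3292, 2825 and 2892, a difference of -3.77 ± 0.21 (adjusted p = 1.13e-09, edgeR) the largest among NME1, RPR1, SCR1 and TLC1. The telomerase RNA TLC1 moved little (-0.53 ± 0.19).

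Spliceosomal RNAs gave 3 lower (60%) and 0 higher of 5 tested, beside 20.9% lower and 18.8% higher among all tested genes. U1 (SNR19) gave 663, 615 and 903 CPM with Hpr1 and 3167, 4076 and 4773 with Cbp80 (log2 -2.47 ± 0.21, adjusted p = 1.02e-07, edgeR). U4 (SNR14) was at -1.63 ± 0.36 and the long form of U5 (SNR7-L, which overlaps the short form) at -2.27 ± 0.35, both called lower. U6 (SNR6), the RNA polymerase III member of the set, had 1433, 1729 and 1599 CPM against 1356, 1163 and 1154, and its groups did not overlap with Hpr1 above (0.38 ± 0.18, adjusted p = 0.0868, edgeR). U2 (LSR1) had 2866, 3198 and 2763 CPM against 3030, 4051 and 3246 and was not called (-0.23 ± 0.18), with no tag at 3767, 3069 and 3199, so neither pulldown stood above the untagged level. For U1 (first 60 nt; chrXIV:230613-230672, minus strand) capitals mark the stretch that pairs with the 5′ splice site, and for U6 (chrXII:366235-366346, plus strand) the ACAGAGA box that takes over that pairing, so the pair of snRNAs that act on 1 site are shown.
SNR19: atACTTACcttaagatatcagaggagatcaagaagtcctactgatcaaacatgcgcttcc
SNR6: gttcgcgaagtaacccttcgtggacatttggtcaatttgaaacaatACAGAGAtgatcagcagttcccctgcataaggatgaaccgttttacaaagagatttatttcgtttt
As a class, spliceosomal RNAs took 0.526% ± 0.0305 of gene counts with Hpr1 and 0.896% ± 0.0814 with Cbp80 (SD, n = 3), and tRNA genes 1.63% ± 0.209 and 1.86% ± 0.430. Neither pulldown held tRNA more than the other beyond the spread (exact two-sided p = 0.6), and its sign turned without Cbp80-PrA replicate 1 (a difference of 0.00782 percentage points).

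**Figure D2:**
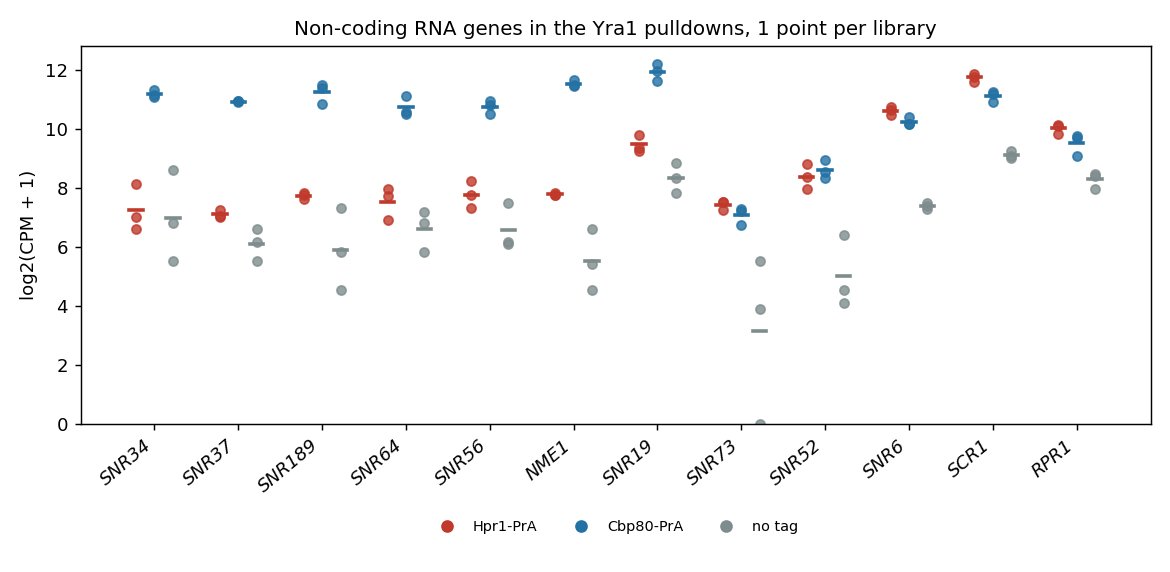
Level of 12 non-coding RNA genes as log2(CPM + 1) in each Hpr1-PrA, Cbp80-PrA and no tag Yra1 pulldown (1 point per library, n = 3; bar, mean of the 3). For SNR34 to SNR19 the Hpr1/Yra1 points lie below the Cbp80/Yra1 points, and for SNR6, SCR1 and RPR1 they lie above.

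Other non-coding RNAs of RNA polymerase II also sat on the Cbp80 side. SRG1, whose transcription through the SER3 promoter represses SER3, had 1247, 1172 and 1109 CPM with Hpr1 and 5236, 5509 and 5222 with Cbp80 (-2.18 ± 0.17), and RUF20 was at -2.53 ± 0.30. Both genes were chosen after their values were seen. Of 6 tested antisense RNA genes 4 were lower (66.7%, beside 20.9% of all tested genes), among them TBRT (-2.28 ± 0.33), and 0 higher. RME2, antisense to IME4, was at 0.73 ± 0.30 (not called). The strand setting of the counting is not given in the sources used here, so an antisense RNA and the gene across from it may share reads. Among 58 tested tRNA genes, 6 were higher and 6 lower (median 0.25). That was 10.3% in each direction, below the 18.8% and 20.9% of all tested genes. The lowest, YNCJ0008W, had 318, 304 and 131 CPM against 3403, 2382 and 2472 (-3.44 ± 0.27). These genes were also chosen after their values were seen.

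Among coding genes the lowest had next to no counts with Hpr1. DAL7, a malate synthase of allantoin breakdown, had 0 counts in all 3 Hpr1/Yra1 libraries and 20, 37 and 19 in the Cbp80/Yra1 libraries, at least 8.06-fold lower the floor being 3 counts summed over the 3 libraries. SDH6, an assembly factor of succinate dehydrogenase, had 1 count in all against 177, a ratio of 56.3 with a 95% counting interval of 9.98 to 2236. Depth therefore sets how far such genes can be said to fall. TDA10 had more, with 26.5, 36.2 and 32.6 CPM against 423, 440 and 344 (-3.60 ± 0.32, adjusted p = 1.41e-07, edgeR). YCR041W and AUA1 overlap genes on the opposite strand (TAF2 and WWM1), and ECM12 overlaps YHR022C. As the strand setting of the counting is not given, each may share reads with the gene it overlaps. YBR182C-A (-3.86), CUE2 (-3.36), PIR5 (-3.35), PIB1 (-3.33), QCR9 (-3.27) and MCH1 (-3.24) completed the 12 lowest. Of these, QCR9 codes for a subunit of cytochrome bc1 and PIR5 for a cell wall protein. All coding genes that overlap another on the opposite strand gave 6 higher and 17 lower of 44 tested, with a median of -0.57. That was 13.6% and 38.6%, beside 18.8% and 20.9% of all tested genes.

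A group of coding genes known for early transcription termination, several of which control themselves through the Nrd1 pathway that also ends snoRNA genes, fell in most members: 5 of 8 lower, 1 higher, median -1.19. That was 62.5% lower and 12.5% higher, beside 20.9% and 18.8% of all tested genes. NRD1, the RNA-binding subunit of that pathway and a target of it, had 199, 224 and 261 CPM against 1298, 942 and 970, a difference of -2.22 ± 0.23 (adjusted p = 7.07e-07, edgeR). URA8, a CTP synthase, had 305, 340 and 250 CPM against 1165, 838 and 926 (-1.69 ± 0.22), and PCF11, of the cleavage and termination machinery, 133, 116 and 120 against 278, 345 and 318 (-1.37 ± 0.25). URA2, the first enzyme of pyrimidine synthesis, ran the other way, with 332, 543 and 533 CPM against 145, 210 and 246 (1.24 ± 0.24). NAB2, the nuclear poly(A)-binding protein, whose own mRNA is held back by that protein, was at -1.68 ± 0.24, with 186, 166 and 326 CPM against 717, 745 and 688.

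Histone mRNAs were also lower with Hpr1: 5 of 9 tested were called, 0 were higher, and all 9 were below 0 (median -1.20). The share called lower was 55.6%, beside 20.9% of all tested genes. HTZ1, the variant H2A.Z, had 79.6, 137 and 152 CPM against 352, 443 and 420 (-1.68 ± 0.26). HHT1 and HHT2, near-identical H3 genes between which reads may be divided, were at -1.59 and -1.66. Factors of cleavage and polyadenylation gave 6 lower and 2 higher of 14 (median -0.95), with RNA15 at -2.32, PTI1 at -1.85 and REF2 at -1.45 against PAP1, the poly(A) polymerase, at 2.18 and YSH1, the endonuclease, at 1.15. The call of YSH1 was lost without Hpr1-PrA replicate 2 (0.82). General stress genes gave 10 lower of 30 (33.3%) and 0 higher (median -0.38). CTT1, the cytosolic catalase, was at -3.02 ± 0.52 on 26.5, 7.23 and 10.9 CPM against 133, 97.1 and 109.

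In several other lists the share called lower was near the 20.9% of all tested genes, though nuclear-encoded oxidative phosphorylation was above it. Fewer were called higher than the 18.8% of all tested genes. These shares were 4.76% for cell wall, 5% for glycolysis, 8.33% for oxidative phosphorylation and 11.7% for intron-containing mRNAs. Single members are given for cell wall and glycolysis genes. Of 42 cell wall genes 9 were lower (21.4%) and 2 higher, at a median of -0.30, led by KNH1 (-3.02 ± 0.27) and by GAS5, a glucanosyltransferase, with 173, 188 and 109 CPM against 734, 628 and 622 (-2.05 ± 0.24). GAS5 stood above no tag on both sides, at log2 ratios of 2.51 and 4.61. Glycolysis gave 4 lower (20%) and 1 higher of 20, at a median of -0.12, with TPI1, triose phosphate isomerase, at 1553, 1642 and 1947 CPM against 4991, 4636 and 4223 (-1.43 ± 0.18). The subunits of phosphofructokinase parted: PFK2 was at -1.18 ± 0.24 and PFK1 at 1.37 ± 0.25. Nuclear-encoded oxidative phosphorylation gave 7 lower (29.2%) and 2 higher of 24 (median -0.62), and intron-containing mRNAs other than those of ribosomal proteins 27 lower (22.5%) and 14 higher of 120 (median -0.42).

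On the other side, PMA1, the plasma membrane proton pump, had 8678, 9912 and 9169 CPM in the Hpr1/Yra1 libraries and 1791, 2369 and 2164 in the Cbp80/Yra1 libraries. The difference was 2.13 ± 0.17 (adjusted p = 4.24e-08, edgeR), a 4.39-fold excess with Hpr1. It was above no tag (420, 521 and 383 CPM) in both, by log2 3.70 and 1.61, and in total RNA its mean was 1679 and 1703 CPM. PMA1 thus stood above the untagged level on both sides. FUN12, the translation initiation factor eIF5B, gave 4100, 4174 and 3165 CPM against 862, 1091 and 612 (2.15 ± 0.22), and MFT1, a THO subunit, 1062, 868 and 609 against 253, 334 and 141 (1.77 ± 0.28). Against no tag the log2 ratios of Hpr1 and Cbp80 were 1.43 and -0.67 for FUN12 and 2.22 and 0.50 for MFT1.

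Among lists with at least 5 tested genes, chromatin genes (remodellers, silencing factors, SAGA) had the highest median, 1.23. This list was made after the values were seen. In it 35 of 66 tested were higher (53.0%, beside 18.8% of all tested genes) and 4 lower. ISW1, an ATPase that slides nucleosomes, had 345, 434 and 457 CPM against 33.2, 51.9 and 101 (2.74 ± 0.31, adjusted p = 1.63e-06, edgeR). HDA1, a histone deacetylase, had 265, 304 and 359 CPM against 53.9, 76.8 and 43.4 (2.35 ± 0.27), and HOS4, of the Set3 deacetylase complex, 690, 774 and 663 against 133, 196 and 105 (2.26 ± 0.23). INO80 was at 2.09. For HOS4 the log2 ratio of Hpr1 to no tag was 2.59, whereas for ISW1 it was 0.20, with no tag at 259, 197 and 225 CPM. The 4 lower members were SNF11 (-1.98), HDA2 (-1.29), IES6 (-1.27) and SPT3 (-1.06). Over the list the median ratio to no tag was 0.91 with Hpr1 and -0.38 with Cbp80.

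DNA replication and repair, another list made after the values were seen, gave 22 higher and 6 lower of 55 (median 0.55). That was 40% and 10.9%, beside 18.8% and 20.9% of all tested genes. SMC3, a cohesin subunit, had 146, 94.1 and 131 CPM against 24.9, 11.3 and 10.9 (2.97 ± 0.44). POL1, the catalytic subunit of DNA polymerase alpha, had 146, 188 and 218 against 24.9, 27.1 and 25.3 (2.81 ± 0.33), and ORC1, of the origin recognition complex, 133, 123 and 97.9 against 20.7, 20.3 and 18.1 (2.54 ± 0.39). Groups stood apart in all of these at low counts on the Cbp80 side. RAD16, a nucleotide excision repair ATPase, ran the other way at high counts, with 796, 774 and 685 CPM against 2375, 1423 and 1632 (-1.26 ± 0.21).

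Ribosome biogenesis genes, whose products assemble ribosomes in the nucleolus, gave 37 higher and 1 lower of 69, at a median of 1.06. The share called higher was 53.6%, beside 18.8% of all tested genes. NOP1, fibrillarin, the methylase of box C/D particles, had 677, 803 and 870 CPM against 112, 108 and 148 (2.68 ± 0.22, adjusted p = 4.7e-08, edgeR). The RNA helicases ECM16 (372, 383 and 468 against 45.6, 74.5 and 57.9) and ROK1 (212, 159 and 185 against 16.6, 40.6 and 29.0) were at 2.72 ± 0.26 and 2.54 ± 0.35. The mRNA of the C/D methylase thus moved opposite to its snoRNA partners. IMP3, the 1 lower member (-2.19 ± 0.61), lost its call without Hpr1-PrA replicate 2. Over the list the median ratio to no tag was 0.22 with Hpr1 and -1.10 with Cbp80. NOP1 itself was at 0.03 and -2.60 there, with 550, 479 and 406 CPM in no tag, while ECM16 was at 2.16 and -0.51.

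Export and mRNP factors parted member by member, with 13 higher (38.2%) and 8 lower (23.5%) of 34 (median 0.70). Among all tested genes 18.8% were higher and 20.9% lower, so the share called lower was near that of all genes. Of THO and TREX, MFT1 rose as above, THO2 was at 1.02 ± 0.35 (a call lost in 8 of its alternatives, DESeq2 among them) and SUB2, the helicase, had 186, 362 and 522 CPM against 104, 97.1 and 163 (1.59 ± 0.31). THP2 was lower, with 66.3, 101 and 141 CPM against 311, 212 and 268 (-1.31 ± 0.30), and TEX1 was at -0.82 ± 0.40 (not called). The mRNAs of the tagged proteins were not called: HPR1 had 119, 79.6 and 54.4 CPM against 145, 160 and 156 (-0.91 ± 0.31) and STO1 119, 116 and 65.3 against 178, 115 and 206 (-0.68 ± 0.33). Each of these genes bears PrA in only 1 of the strains, and any effect of that on its 3′ counts was not tested. CBC2, the other cap-binding subunit, was at -1.27 ± 0.44, a call that leaving out any 1 of the Hpr1/Yra1 libraries removed. HRB1, an SR-like mRNA-binding protein, had 995, 1179 and 870 CPM against 170, 330 and 203 (2.09 ± 0.24), and MLP1 and MLP2, filaments of the nuclear pore basket, were at 1.74 and 1.90.

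YRA1 mRNA itself was higher with Hpr1, at 186, 297 and 337 CPM against 49.7, 58.7 and 57.9 (2.30 ± 0.28, adjusted p = 3.82e-06, edgeR). Both pulldowns used antibody to its protein, and its no tag libraries ran from 32.3 through 127 to 248 CPM. YRA1 keeps its own level in check through an intron that is spliced poorly, so the ends of that intron are shown (chrIV, plus strand, R64). Capitals mark the first 6 intron bases in the first line (1236828 to 1236867) and the branch point heptamer in the second (1237573 to 1237608), which ends at the last intron base.
YRA1 5′ splice site: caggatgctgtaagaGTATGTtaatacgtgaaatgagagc
YRA1 branch point: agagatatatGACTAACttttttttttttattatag
On the coding strand, 73.0% of 281 nuclear introns start with GTATGT and 82.6% hold TACTAAC, which the YRA1 intron does not, while 13 hold GACTAAC. At 766 nt it is among the longest introns, with 3 at least as long counting itself and a median of 141 nt. A 3′ tag does not say whether the intron was present in these molecules.

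For the next lists the reference is again 18.8% higher and 20.9% lower among all tested genes. Proteasome genes gave 13 higher (37.1%) and 1 lower of 35 (median 0.62). Their median log2 ratio to no tag was -0.33 with Hpr1 and -0.93 with Cbp80, below the untagged level on both sides. RPT2, an ATPase of the proteasome base, was at 1181, 1035 and 957 CPM against 274, 278 and 347 (1.82 ± 0.20). Chaperones gave 14 higher (35.9%) and 3 lower of 39 (median 0.51), with SBA1 at 2.16 and SSA1 at -1.55. Nuclear exosome and surveillance factors gave 8 higher (30.8%) and 2 lower of 26. Their median ratios to no tag were 0.60 with Hpr1 and -0.49 with Cbp80, and those of chaperones 0.45 and 0.01. MTR4, the exosome helicase, had 438, 579 and 489 CPM against 133, 163 and 185 (1.66 ± 0.22), and AIR2 was at -1.59. Translation factors gave 13 higher (37.1%) and 3 lower of 35 (median 0.71). At the median they were also below no tag in both pulldowns, at -0.41 with Hpr1 and -0.73 with Cbp80. Of their leading members EFT1 (2.92) has the near-identical copy EFT2 (1.22) and TEF1 (2.44) the copy TEF2, and both were below no tag on either side. The call of TEF1 was also lost when Cbp80-PrA replicate 2 or any 1 Hpr1/Yra1 library was left out.

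**Figure D3:**
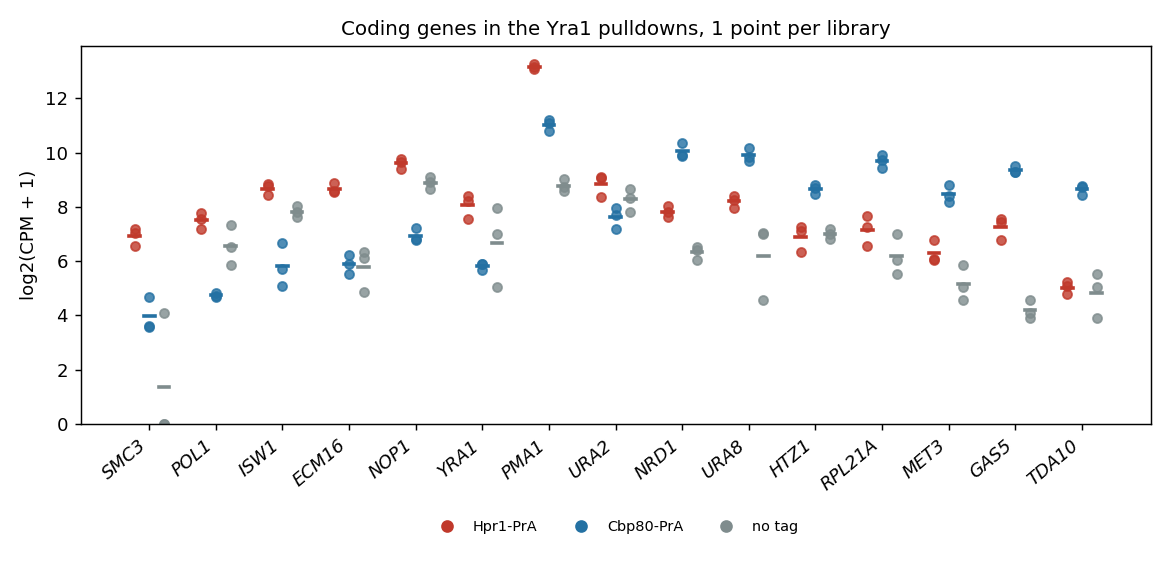
Level of 15 coding genes as log2(CPM + 1) in each Hpr1-PrA, Cbp80-PrA and no tag Yra1 pulldown (1 point per library, n = 3; bar, mean of the 3). From SMC3 to URA2 every Hpr1/Yra1 point is above the Cbp80/Yra1 points, and from NRD1 to TDA10 every one is below, while no tag varies from gene to gene.

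Ribosomal protein mRNAs took 19.1%, 16.9% and 21.3% of gene counts with Hpr1 and 8.41%, 10.02% and 14.4% with Cbp80, against 42.9% ± 2.12 with no tag and 13.1% and 12.7% in total RNA. The groups did not overlap (exact two-sided p = 0.1, the smallest possible), and Hpr1 lay between Cbp80 and no tag. By gene, 34 of 135 were higher (25.2%) and 11 lower (8.15%), beside 18.8% and 20.9% of all tested genes. The list had a median of 0.72, with median log2 ratios to no tag of -1.76 for Hpr1 and -2.57 for Cbp80. Many of these genes have a near-identical copy. RPL21A, the lowest, had 92.9, 203 and 152 CPM against 846, 957 and 684 (-2.41 ± 0.26) and was above no tag on the Cbp80 side by 2.67. Ribosomal protein genes without an intron gave 20 higher of 48 (41.7%, median 0.95). Those with one gave 14 of 87 (16.1%, median 0.63), near the share of all tested genes. Mitochondrially encoded genes also lay between Cbp80 and no tag, at 0.0893% ± 0.00992 with Hpr1, 0.0176% ± 0.00433 with Cbp80 and 0.166% ± 0.0287 with no tag, beside 1.61% and 1.63% in total RNA. The 21S rRNA gene gave 783, 745 and 631 CPM, 124, 111 and 138 CPM and, with no tag, 1520, 1056 and 1217. RNA of mitochondria and of ribosomal proteins thus moved with the higher calls, and what part RNA held without the tag has in them was not tested.

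**Figure D4:**
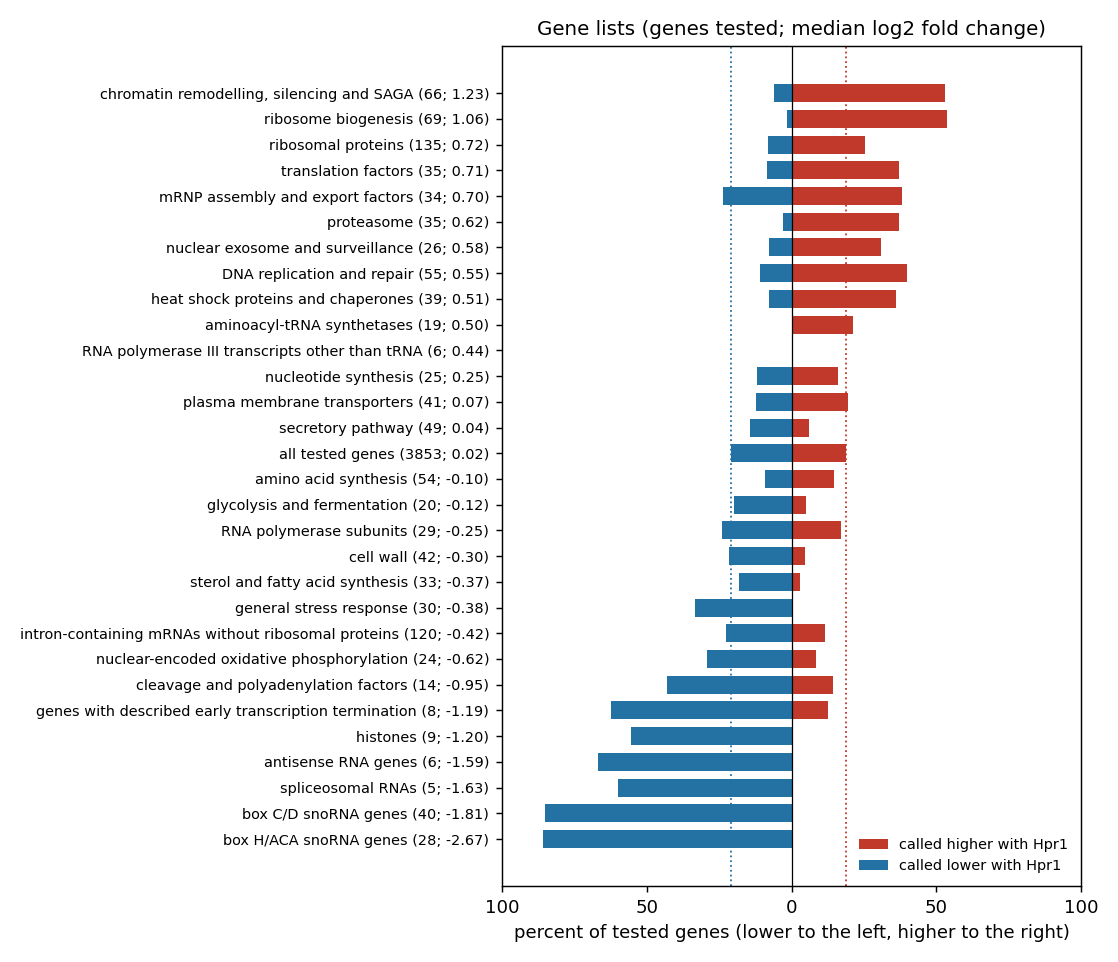
Percent of tested genes in each list called higher (red, right) or lower (blue, left) in the Hpr1/Yra1 pulldown, ordered by the list's median log2 fold change (number tested and median in brackets). Dotted lines mark all tested genes, at 18.8% and 20.9%. Chromatin and ribosome biogenesis genes are called higher in 53.0% and 53.6% of members, and box C/D and H/ACA snoRNA genes lower in 34 of 40 and 24 of 28.

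Length was the property the study asked about. Coding genes called higher with Hpr1 had a median coding span of 1726.5 nt and those called lower 966 nt, beside 1281 nt over all 3699 coding genes tested (span is the stretch on the chromosome between start and stop codon, with any intron and without untranslated regions). In quintiles of span the median log2 difference went from -0.47 in the shortest through -0.07, 0.03 and 0.12 to 0.52 in the longest. Of 740 genes in the shortest quintile 52 were higher (7.03%) and 236 lower (31.9%), and of 740 in the longest 251 (33.9%) and 52 (7.03%). Among all tested coding genes 19.4% were higher and 19.7% lower. From the shortest to the longest quintile the median log2 ratio to no tag was -0.93, -0.32, 0.31, 0.79 and 0.95 for Hpr1 and -0.63, -0.39, 0.32, 0.61 and 0.42 for Cbp80, over the same no tag libraries, so longer genes stood higher over no tag in both pulldowns. The level in total RNA ran alongside: by quintiles of that level the medians were -0.86, -0.35, 0.14, 0.36 and 0.77, so genes with more total RNA were also higher with Hpr1 relative to Cbp80. Over these quintiles the median log2 ratio to no tag was 0.69, 0.41, 0.15, 0.17 and -0.19 for Hpr1. For Cbp80 it was 1.94, 0.99, 0.26, -0.12 and -0.82. Genes with the most total RNA were thus, at the median, below the untagged level in both pulldowns. Within tertiles of level, the order by length remained, from -1.03 to -0.29 in the lowest, from -0.26 to 0.47 in the middle and from 0.24 to 0.93 in the highest, with the fourth quintile below the middle one in the last. GC content of the coding sequence gave medians of 0.05, 0.11, 0.17, 0.02 and -0.13.

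Weighted by counts, the mean coding span per tag was 1377, 1450 and 1379 nt in the Hpr1/Yra1 libraries and 1302, 1295 and 1243 nt in the Cbp80/Yra1 libraries, a difference of 122 nt without overlap (exact two-sided p = 0.1, the smallest possible). No tag had 995 ± 35.1 nt and total RNA 1769 ± 13.2 and 1784 ± 32.2 nt (SD, n = 3), so both pulldowns lay between no tag and total RNA. Without ribosomal protein genes, which are short, the pulldowns had 1571 ± 33.8 and 1363 ± 7.38 nt. The longest genes did not move as one. REA1 (MDN1, a giant ribosome assembly ATPase) had 252, 289 and 337 CPM against 149, 154 and 138 (adjusted p = 0.00167, edgeR, with a log2 difference just under the fold limit and an SE of 0.23), VPS13 119, 109 and 109 against 41.5, 29.4 and 32.6 (1.71 ± 0.36), and TOM1 was at 1.22 ± 0.26. TRA1 had 173, 116 and 76.1 against 137, 81.3 and 134 (0.06 ± 0.34), with a sign that turned without Hpr1-PrA replicate 1 or Cbp80-PrA replicate 2. IRA2 and TAO3, which the study followed in single cells, had 159, 174 and 185 CPM against 116, 88.1 and 141 (0.62 ± 0.28, adjusted p = 0.068, edgeR) and 79.6, 86.8 and 43.5 against 33.2, 51.9 and 57.9 (0.55 ± 0.41, adjusted p = 0.263, edgeR). Neither was called. The groups did not overlap for IRA2 and overlapped for TAO3, and a missed threshold does not show that either was the same in both.

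**Figure D5:**
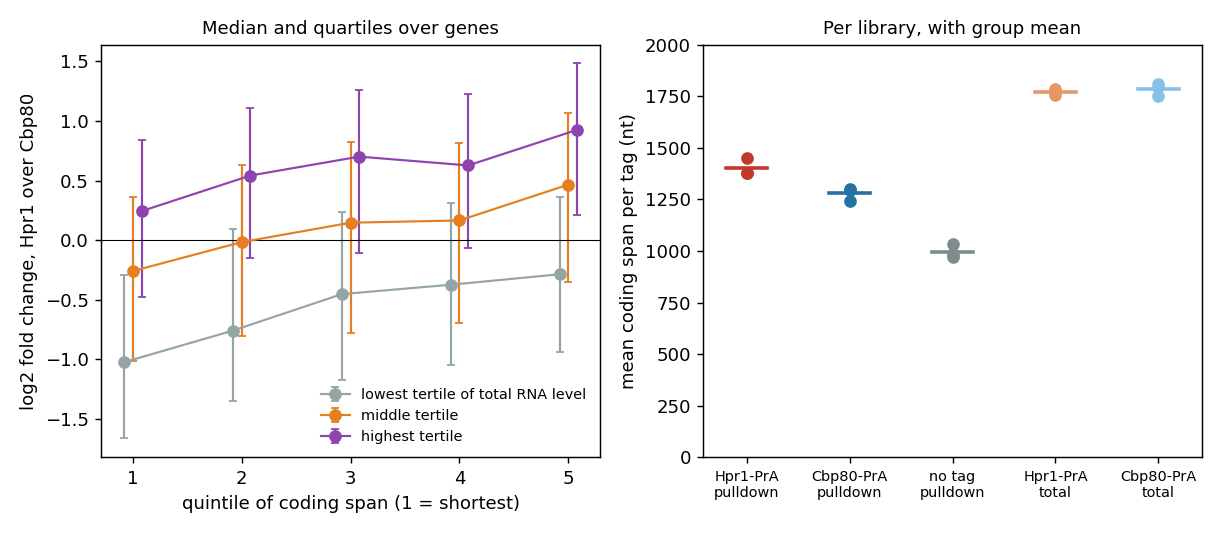
Left, median log2 fold change (Hpr1/Yra1 over Cbp80/Yra1) with quartiles over genes, by quintile of coding span within tertiles of total RNA level. Right, mean coding span per tag in nt for each library (points) with the group mean (bar), n = 3 per group. The longest quintile has the highest median in each tertile (-0.29, 0.47 and 0.93), and the Hpr1/Yra1 mean of 1402 nt lies above the Cbp80/Yra1 mean of 1280 nt.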

How the data were processed

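The count table held unique molecules per gene, raw and not normalized. Per the study's methods the authors extracted and collapsed UMIs with UMI-tools 1.0.1, trimmed reads with bbduk, removed rRNA reads with bbsplit, aligned to R64 with STAR 2.7.10a and made the deposited counts with HTSeq 2.0.2 (intersection-nonempty). The strand setting is not given in the sources used here. A second deposited table, the same counts over size factors, was not used. The table held 6461 genes, 6458 matched to the annotation, and 5 summary lines that were left out. Reads outside annotated genes were a mean of 41.5% of counted reads with Hpr1, 48.0% with Cbp80 and 47.4% with no tag. A further 3 lines were not analysed here.

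Genes passing filterByExpr were fitted in the 6 libraries with edgeR 4.0.16 (TMM, robust quasi-likelihood) in R 4.3.3. Adjusted p-values are Benjamini-Hochberg values over all tested genes and measure the spread between these 3 biological replicates per group. The biological coefficient of variation was 0.181 in this fit. In the model with total RNA it was 0.127, pooled over pulldowns and total RNA, so adjusted p-values there do not measure pulldown spread alone. Pulldown and total RNA CPM are TMM-scaled, those of no tag per library total. Ratios to no tag came from 1 fit of the 9 wild-type pulldowns (2584 genes) and are missing for genes that fit did not test. Counts were also simulated for 3608 genes of this comparison. Of these, 90.8% of 98 genes changed by log2 1.5, all 100 changed by log2 3 and 0.235% of 3410 unchanged genes were called. The simulation gave every gene and both groups 1 spread and changed a far smaller part of the genes than was called here. It therefore checks the fit and does not give the rate of false calls in these data. Copies are genes with at least 90% identity over at least 100 nt. Class shares and mean spans were compared by exact permutation. Counting intervals and floors cover counting error only.

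Named genes were called genes whose 6 libraries averaged 20 CPM or more without overlap between groups: the 12 highest and 12 lowest coding genes, the 6 lowest and 3 highest snoRNA genes, up to 3 per direction in each list, and a fixed set around THO, the cap-binding complex and the longest genes. Others are said to have been chosen after their values were seen, the snoRNAs and structured RNAs without a call and further members of a list being such. Members and lists were chosen with earlier results of these data known. Alternatives were other scalings, filters, a fold-limit test, DESeq2 1.42.0, a fit of all 15 pulldowns, a replicate block and leaving out each library.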

Additional observations from a re-analysis of the deposited data

Results flagged for a closer look

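The difference between the Hpr1-PrA and Cbp80-PrA strains was not the same in pulldown as in total RNA for 735 genes that were higher with Hpr1 and 721 that were lower, by the interaction term of edgeR over 12 libraries with the same limits as in the pulldown comparison. In total RNA alone 0 genes were called. The interaction fit estimated spread over pulldowns and total RNA together, with a biological coefficient of variation of 0.127. It was 0.181 in the fit of pulldowns alone and 0.0846 in that of total RNA alone. The p-values of the interaction may therefore understate the spread between pulldown replicates. Leaving out each pulldown library in turn gave 621 to 755 genes higher and 613 to 767 lower, an alternative added after seeing the data. Among all 5261 genes tested for this interaction, 14% were called higher and 13.7% lower. It was called lower for 24 of 28 box H/ACA and 32 of 44 box C/D snoRNA genes and higher for 0. For ribosome biogenesis it was called higher for 36 of 72 genes and lower for 1. With 3 libraries per group no single library was tested for standing apart.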

How the results depend on the processing

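Counts of 724 genes higher and 805 lower with Hpr1 became 246 and 307 when edgeR tested against the fold limit, and 104 and 415 over the 1153 genes above no tag in both pulldowns, fewer by construction. Other scalings, filters, DESeq2 and the fit of 15 pulldowns gave 574 to 761 higher and 687 to 1003 lower, 1003 being without a filter. Leaving out each library gave 637 to 724 and 719 to 836. With a replicate block the counts were 743 and 804, with 716 and 793 of the genes kept. Same-numbered samples correlated by 0.0876, 0.0461 and 0.173 in their deviations. Hpr1-PrA replicate 2 correlated slightly better with Cbp80-PrA replicate 1 (0.0553). The block took the biological coefficient of variation from 0.181 to 0.141 in the pulldowns, and from 0.0846 to 0.0865 in total RNA. Pulldowns of the same number may thus share some variation, and whether the numbers pair them was not tested. With the block no call among 150 named genes changed. In total RNA, leaving out each library gave 0 to 1 genes higher and 0 lower. For shares, Hpr1 minus Cbp80 ranged over left-out libraries from -2.51 to -2.08 percentage points for C/D, -4.06 to -3.71 for H/ACA, -0.417 to -0.343 for spliceosomal RNA, 6.88 to 9.86 for ribosomal proteins and 0.0678 to 0.0773 for mitochondrial genes. For tRNA it was -0.416 to 0.00782 (-0.224 with all), turning without Cbp80-PrA replicate 1. For other coding genes it was -2.65 to 0.235 (-0.853 with all), turning without Hpr1-PrA replicate 3 (0.0806) or Cbp80-PrA replicate 2 (0.235), and it was 4.004 with the summary lines in the total. Mean span differed by 97.8 to 134 nt. The median of the longest quintile exceeded that of the shortest by 0.98, by 0.84 to 1.10 over left-out libraries and by 1.376 over genes above no tag. TRA1 turned to -0.24 without Cbp80-PrA replicate 2 and -0.21 without Hpr1-PrA replicate 1, and its highest value was 0.28. Causes were not tested. Of 1906 alternative values of named genes 1837 kept direction and side of the threshold, and 61 over 21 genes lost the call. Depth of the Hpr1/Yra1 libraries, where 3 counts are 21.4 to 38.4 CPM, limits low genes.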
